A study of Mus musculus with 2 samples.

Results

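The receptor chains for the cytokines that induce and maintain Th17 cells were followed as 10 genes, found by their symbols in the deposited count tables. They are *Il6ra*, *Il6st*, *Il21r*, *Il23r*, *Il12rb1*, *Il1r1*, *Il1rap*, *Il1r2*, *Il18r1* and *Il18rap*, and all 10 were among the 23282 gene rows of the tables. The tables compare 1 control library with 1 RV-Cre library, so no difference given here has a replicate check. Naïve CD4 T cells were taken from the spleens of *Fak* fl/fl mice, which the methods describe as female and 6 to 8 weeks old, and both libraries therefore derive from cells that carried the floxed allele. The strain background and the number of animals behind each library are not given in the sources used here. One culture received a control retrovirus (RV) and the other a retrovirus that carries Cre recombinase (RV-Cre), which deletes the floxed part of *Fak*. The genotype label of the control reads WT, although its title names *Fak* fl/fl cells, and the title was followed. Both cultures had been activated with anti-CD3ε at 10 μg/ml and anti-CD28 at 5 μg/ml, spent 3 days in a Th17-polarizing medium, and were sorted for the GFP of the vector. The polarizing mixture held IL-6 at 50 ng/ml, TGFβ1 at 1 ng/ml, TNFα at 1 ng/ml and IL-1β at 2 ng/ml, with antibodies against IFNγ and IL-4 at 5 μg/ml each. Thus the ligands of *Il6ra* and *Il1r1* were supplied in the medium of both cultures, whereas IL-21, IL-23 and IL-18 were not added. Because Cre was present only where *Fak* was deleted, effects of Cre itself and of *Fak* loss cannot be told apart.

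IL-6 binds the ligand-binding chain IL-6Rα, and the complex signals through gp130, the product of *Il6st*, to JAK kinases and STAT3. IL-21 signals through its own chain with the common γ chain, and IL-23 through IL-23R paired with IL-12Rβ1, a chain that is shared with the IL-12 receptor. IL-1 binds IL-1R1, which pairs with the accessory chain IL-1RAcP and signals through MyD88 toward NF-κB, whereas IL-1R2 binds the same ligand without signaling and acts as a decoy. IL-18 uses the related pair of *Il18r1* and *Il18rap*. In Th17 differentiation, IL-6 starts the program, IL-1 and IL-21 amplify it, and IL-23 sustains it.

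Counted reads came to 13799264 in the control and 12305010 in the RV-Cre library. *Ptk2*, the symbol of *Fak*, had 110 and 31 of them, respectively, which gave a normalized RV-Cre to control ratio of 0.318 (95% interval 0.206 to 0.478). The reads of this kit lie near the 3′ end of a transcript, and where the deleted part of *Fak* lies is not given in the sources used here, so this count is no direct measure of the deletion. All 11 T cell markers of a fixed list, *Cd3e* and *Cd4* among them, had reads in both libraries. *Cd4* had 1489 and 1342 reads.

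The receptor genes lie on 7 chromosomes, and 4 of them are neighbors. In the RefSeq annotation of GRCm38.p6, the same chromosome sequences as the mm10 build named in the submitters' processing notes, *Il1r2* (chr1:40084692-40125230), *Il1r1* (chr1:40222480-40316201), *Il18r1* (chr1:40465552-40500854) and *Il18rap* (chr1:40515362-40551707) stand in this order on the forward strand, within 467 kb. *Il23r* (chr6:67422932-67491855) lies on the reverse strand, 46.6 kb from *Il12rb2*, the second chain of the IL-12 receptor. *Il6ra* (chr3:89869324-89913196) is also on the reverse strand. The forward strand holds *Il21r* (chr7:125603252-125634397), *Il12rb1* (chr8:70808360-70823542), *Il6st* (chr13:112464070-112506860) and *Il1rap* (chr16:26581509-26730128).

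Promoters were read for 9 of the 10 genes from RefSeq (GRCm38.p6, 250 bases before to 50 after a start site), because the study concerns STAT3 and NF-κB. The palindrome TTCNNNGAA, a core of STAT sites, was found on either strand at a start site of *Il1r2* and *Il18r1*, that is, 2 of 9, against 9.55% of the 27025 genes with a promoter in that table. The loose κB-like pattern of GGG, any 5 bases and CC was found for 7 of 9, against 53.5% of genes. Both patterns were searched on both strands, a match is no evidence of binding, and overlapping matches were kept. The windows below are those of the 3 receptors with the largest ratios in either direction that had a promoter in the table, *Il6ra*, *Il21r* and *Il1r1*, with the match to the κB-like pattern or its reverse complement in capitals, and the intronic one of the 2 matches to TTCNNNGAA of *Il18r1*. Each is printed 5′ to 3′ on the strand of the gene. For *Il21r* the start site counted from is also an internal one. It lies downstream of the first base of the gene given above, so the match is nearer to that base.
Il6ra, chr3:89913391-89913440, reverse strand, upstream of the gene, first capital 224 bases before the start site: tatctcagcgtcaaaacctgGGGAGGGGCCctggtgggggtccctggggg
Il21r, chr7:125603179-125603227, forward strand, upstream of the gene, first capital 231 bases before the start site: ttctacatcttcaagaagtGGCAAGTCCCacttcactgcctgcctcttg
Il1r1, chr1:40266336-40266383, forward strand, intron, first capital 232 bases before an internal start site: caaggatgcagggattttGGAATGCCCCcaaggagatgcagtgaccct
Il18r1, chr1:40465834-40465882, forward strand, intron, first capital 152 bases before an internal start site: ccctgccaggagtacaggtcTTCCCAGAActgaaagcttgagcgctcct
A second match in *Il6ra*, 223 bases before the start site, overlaps the one shown. The matches of genes that were higher (*Il6ra*, *Il21r*) and of one that was lower (*Il1r1*) in the RV-Cre library are thus to the same pattern.

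Scaling between the libraries used the TMM factors of edgeR. A gene entered the comparison with log2(normalized count + 1) of at least 4 in at least 1 library, which is 15 normalized reads, and was counted as higher or lower when the difference of these log2 values was at least 1 in size, that is, 2-fold. All but *Il23r*, that is, 9 of the 10, passed this minimum. *Il6ra*, *Il21r* and *Il18r1* were at least 2-fold higher in the RV-Cre library, *Il1r1* and *Il12rb1* were at least 2-fold lower, and *Il6st*, *Il1rap*, *Il1r2* and *Il18rap* were neither. *Il18r1*, at the line, was no longer 2-fold higher under 4 of the alternative settings. The counts are 3 of 9 higher and 2 of 9 lower, while over all 12112 genes past the minimum 14.2% were higher and 12.3% lower. These shares are also the background for the counts of every list below. With the minimum required in both libraries, the receptor counts stayed at 3 and 2. Over all genes, 758 higher and 1097 lower genes were then left, of 1720 and 1491. The call of a gene past the minimum in 1 library only is thus tied in part to that minimum. The exact 95% counting interval of the ratio, which covers the sampling of reads only and not the variation between cultures, lay above 1 for 5 of the 10 genes, below 1 for 2 and included 1 for 3. Over all genes past the minimum it excluded 1 for 74.7%, so an interval away from 1 is common in these libraries. The median log2 ratio of the 9 genes was 0.57, against -0.01 over all genes past the minimum. In bulk RNA, fewer cells that carry a receptor and less of its RNA per cell cannot be told apart.

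**Figure D1:**
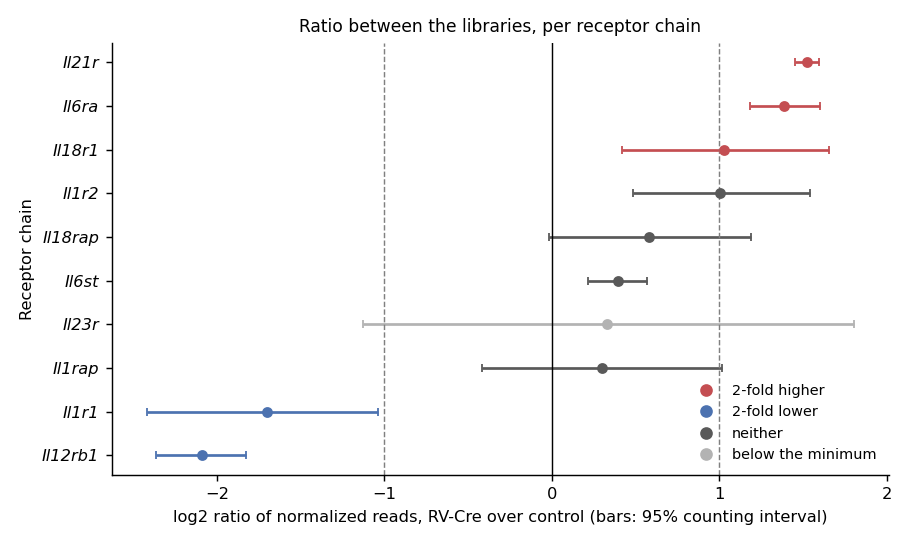
Ratio of normalized reads between the RV-Cre and control libraries for the 10 receptor genes (x axis, log2 scale, nothing added to the counts), with the exact 95% counting interval as a bar and dashed lines at 2-fold. *Il12rb1* and *Il1r1* lie wholly left of the lower line and *Il21r* and *Il6ra* wholly right of the upper one, while *Il18r1* and *Il1r2* sit on it, and their color follows the comparison in which 1 was added to each normalized count.

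Of the IL-6 receptor chains, the ligand-binding chain was at least 2-fold higher in the RV-Cre library and gp130 was not. *Il6ra* was read 270 times in control cells and 626 times in RV-Cre-transduced cells, 2.62-fold after scaling (95% interval 2.27 to 3.03), or 1.38 on the log2 scale. For *Il6st* the reads were 492 and 572, 1.31-fold (1.16 to 1.48), an increase larger than counting error that stayed under 2-fold. Within the control library, *Il6ra* thus supplied 35.4% of the reads of the pair (exact binomial 95% interval 32.0% to 39.0%), and within the RV-Cre library 52.3% (49.4% to 55.1%). The ratio of *Il6ra* to *Il6st* reads, a quantity that does not depend on scaling between libraries, went from 0.549 to 1.09, a change of 1.99-fold (exact conditional 95% interval 1.65 to 2.42). Of the genes with a mean log2 level within 0.5 of that of *Il6ra*, 4.52% were at least 2-fold higher. The antisense gene *Gm42809* overlaps an exon of *Il6ra*, and since no source says whether reads were counted by strand, part of its reads is uncertain. Membrane-bound and soluble forms of the receptor are not separated by counts per gene.

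Among the IL-21 and IL-23 receptor chains, the IL-21 chain was higher and IL-12Rβ1 lower. *Il21r* was read 2156 times in control cells and 5485 times in RV-Cre-transduced cells, 2.87-fold after scaling (95% interval 2.73 to 3.02), or 1.52 on the log2 scale, the largest increase of the 10. *Il2rg*, the common γ chain with which it pairs, had 6163 and 5439 reads and was at 0.996 of its control level (0.960 to 1.03). The reads of *Il21r* per read of *Il2rg* went from 0.3498 to 1.01, a change of 2.88-fold (2.71 to 3.07). *Il21r* alone held 56.0% of the reads of the 10 receptor genes in the control and 77.2% in the RV-Cre library.

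*Il12rb1* was read 673 times in control cells and 140 times in RV-Cre-transduced cells, 0.235 of the control level after scaling (95% interval 0.194 to 0.282), or -2.08 on the log2 scale, the largest decrease of the 10. Of the genes near its abundance, 9.56% were at least 2-fold lower. Its partner *Il23r* had only 9 and 10 reads, or 0.652 and 0.813 counts per 1000000 counted reads (CPM), below the expression minimum in both libraries. The ratio for *Il23r* was 1.25 with an interval from 0.458 to 3.49, so that a change in either direction by 2-fold was not detectable at this depth. *Il12rb2*, the alternative partner of IL-12Rβ1, had 17 and 11 reads. The reads of *Il12rb1* per read of *Il12rb2* went from 39.6 to 12.7, a change of 0.322 (0.139 to 0.778, with a 99% interval of 0.109 to 1.02 that included 1), while the reads of *Il23r* per read of *Il12rb1* went from 0.0134 to 0.0714, a change of 5.34-fold (1.91 to 15.1). Both of these ratios contain *Il12rb1*, and the change in *Il23r* reads per read of *Il12rb2*, at 1.72 (0.453 to 6.54), was within counting error.

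**Figure D2:**
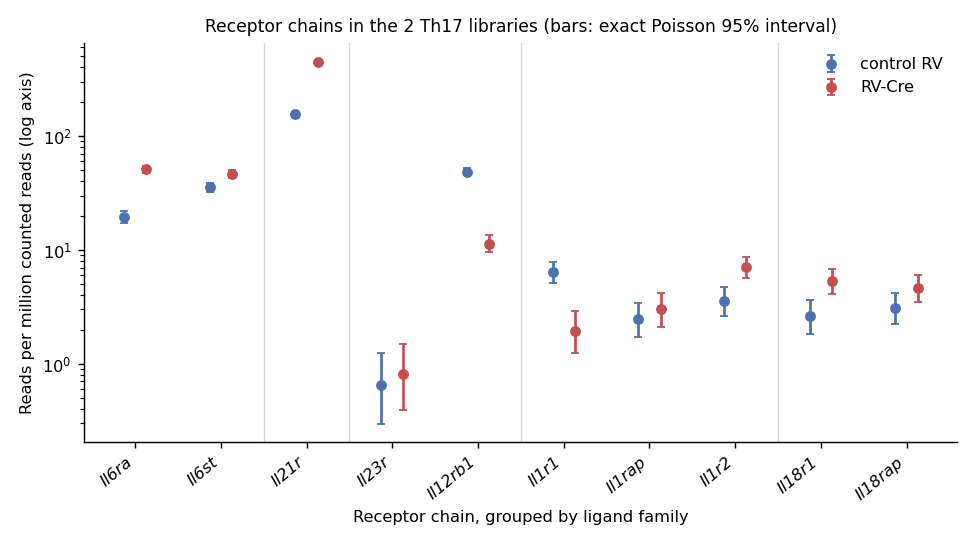
Level of each receptor chain in the control (blue) and RV-Cre (red) library, as counts per 1000000 counted reads (CPM) on a log axis, with exact Poisson 95% intervals and vertical lines between the ligand families IL-6, IL-21, IL-23, IL-1 and IL-18. *Il21r* stood highest in both libraries, *Il12rb1* went from 48.8 to 11.4 and *Il23r* stood lowest, at 0.652 and 0.813 CPM.

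The signaling IL-1 receptor had fewer reads and the decoy receptor more reads in the RV-Cre library. *Il1r1* was read 88 times in control cells and 24 times in RV-Cre-transduced cells, 0.308 of the control level (95% interval 0.187 to 0.488), or -1.66 on the log2 scale. For *Il1r2* the reads were 49 and 87, 2.00-fold (1.40 to 2.91). Its log2 ratio of 0.99 lay just under the 2-fold line, because 1 was added to each normalized count. *Il1rap*, the accessory chain, differed by no more than counting error, with 34 and 37 reads (1.23-fold, 0.750 to 2.02).

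The decoy chain therefore made up 35.8% of the 137 reads of *Il1r1* and *Il1r2* in the control (exact binomial 95% interval 27.8% to 44.4%) and 78.4% of the 111 reads in the RV-Cre library (69.6% to 85.6%). The reads of *Il1r1* per read of *Il1r2* went from 1.80 to 0.276, a change of 0.154 (0.0829 to 0.282), or 6.51-fold in favor of the decoy. Those of *Il1r1* per read of *Il1rap* went from 2.59 to 0.649, a change of 0.251 (0.124 to 0.504). The order of *Il1r1* and *Il1r2* by reads was thus reversed between the libraries, with Poisson intervals that did not overlap in either. The antisense gene *Gm16894* overlaps an exon of *Il1r2* and *Gm20319* one of *Il1rap*. In the tables these had 0 and 5 reads and 1 and 0 reads, respectively. For genes as low as *Il1r1*, ratios beyond 2-fold were frequent, with 22.3% higher and 18.4% lower among the 993 genes within 0.5 of its mean log2 level.

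**Figure D3:**
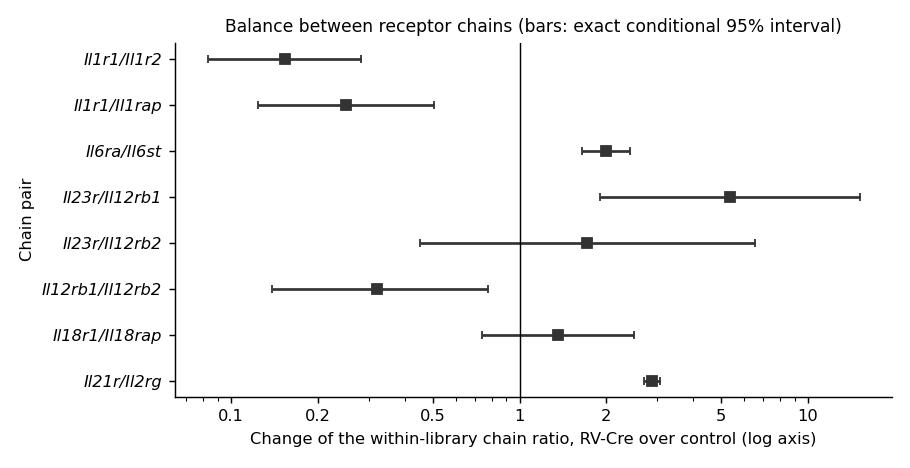
Change between the libraries in the ratio of the reads of 2 chains within a library (x axis, RV-Cre over control, log axis) for 8 chain pairs, with exact conditional 95% intervals. The balance moved toward the second chain for *Il1r1*/*Il1r2* (0.154), *Il1r1*/*Il1rap* (0.251) and *Il12rb1*/*Il12rb2* (0.322, whose 99% interval included 1), toward the first for *Il6ra*/*Il6st* (1.99), *Il21r*/*Il2rg* (2.88) and *Il23r*/*Il12rb1* (5.34), and the intervals of *Il23r*/*Il12rb2* and *Il18r1*/*Il18rap* included 1.

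Both IL-18 receptor chains had more reads in the RV-Cre library. *Il18r1*, the ligand-binding chain, had 36 reads in control and 65 in RV-Cre-transduced cells, 2.04-fold after scaling (95% interval 1.34 to 3.15), or 1.01 on the log2 scale, which places it at the 2-fold line. It fell short of 2-fold with scaling by library total (0.997), DESeq2 size factors (0.992), quantile normalization (0.885) and a pseudocount of 10 (0.849). *Il18rap*, the accessory chain, had 43 and 57 reads, 1.496-fold, with an interval that just included 1 (0.989 to 2.28). The share of *Il18r1* in the reads of the pair was 45.6% in the control and 53.3% in the RV-Cre library, with intervals that overlapped (34.3% to 57.2% and 44.0% to 62.4%), and the chain ratio changed by 1.36-fold (0.743 to 2.502). Of the genes near the abundance of *Il18r1*, 22.0% were at least 2-fold higher.

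Since CD8 T cells and NK cells also carry IL-18 receptors, their markers were read in the same libraries. The cultures had been started from CD4 T cells purified with a naïve CD4 T cell isolation kit, a step meant to remove such cells. The purity reached is not given in the sources used here. Of 9 such genes, 7 passed the minimum, with 2 at least 2-fold higher (*Cd8a* with 322 and 580 reads, *Cd8b1* with 122 and 274) and 3 lower (*Klrk1*, *Klrd1* and *Gzma*, the last with 286 and 66 reads). *Ncr1* was at 0 in the control and *Klrb1c* in the RV-Cre library. The summed level of the 9 genes was 111 CPM in the control and 133 in the RV-Cre library. The part of such cells in the *Il18r1* and *Il18rap* counts was not tested.

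Within the IL-1 receptor cluster, neighbors thus differed in opposite directions. *Il1r1* was the 1 gene at least 2-fold lower among the 6 of 10 cluster and flanking genes that passed the minimum, between *Il1r2* upstream, with a log2 ratio of 0.99, and *Il1rl2* downstream, the IL-36 receptor gene, with 0 and 12 reads and below the minimum. *Il18r1* was the 1 gene higher. Over all genes past the minimum, 14.2% were higher and 12.3% lower, with 18.4% lower near the abundance of *Il1r1*. These counts are thus no trait particular to the cluster. *Il1rl1*, the IL-33 receptor gene, had 33 and 36 reads, a log2 ratio of 0.29. *Map4k4*, the flanking kinase gene, had 5002 and 7824 reads, a log2 ratio of 0.82. On the other side, *Slc9a4*, *Slc9a2* and *Mfsd9* had at most 3 reads in either library.

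**Figure D4:**
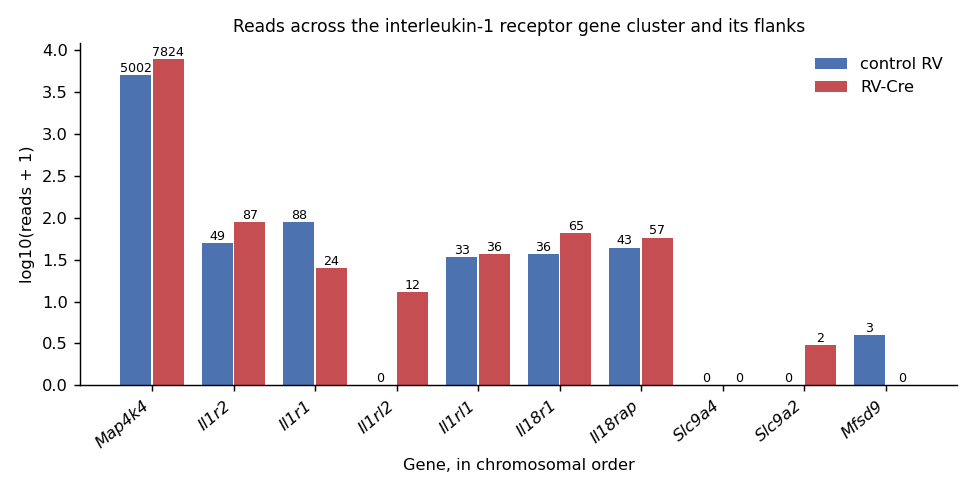
Reads of the genes of the IL-1 receptor cluster and its flanks in chromosomal order (equal spacing, not to scale), as log10(reads + 1) in the control (blue) and RV-Cre (red) library, with the raw read count above each bar. *Il1r1* had 88 and 24 reads, while *Il1r2*, *Il18r1* and *Il18rap* on either side had more reads in the RV-Cre library.

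Because the kit yields reads from transcript ends, levels in CPM were set side by side without division by transcript length. In the control library the order by CPM was *Il21r* (156), *Il12rb1* (48.8), *Il6st* (35.7), *Il6ra* (19.6), *Il1r1* (6.38), *Il1r2* (3.55), *Il18rap* (3.12), *Il18r1* (2.61), *Il1rap* (2.46) and *Il23r* (0.652). From *Il1r2* to *Il1rap*, neighbors in this order did not differ beyond their Poisson intervals. In the RV-Cre library the order was *Il21r* (446), *Il6ra* (50.9), *Il6st* (46.5), *Il12rb1* (11.4), *Il1r2* (7.07), *Il18r1* (5.28), *Il18rap* (4.63), *Il1rap* (3.01), *Il1r1* (1.95) and *Il23r* (0.813). *Il6ra* and *Il6st* overlapped there, and so did each pair of neighbors from *Il1r2* downward. *Il12rb1*, above *Il6st* and *Il6ra* in the control, stood below both, and *Il1r1* stood above *Il1r2* only in the control.

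Other cytokine receptors were read from a list of 41 chains. The minimum was passed by 27. Of these, 8 were at least 2-fold higher and 1 was lower, against 14.2% and 12.3% of all genes past the minimum. The median log2 ratio of the 27 was 0.59, beside 0.57 for the 9 receptors above and -0.01 for all genes. With the minimum required in both libraries, the median was 0.32 for this list and 0.57 for the 9 receptors. Among the highest were the LIF receptor gene *Lifr* with 4 and 26 reads (log2 ratio 2.59) and the prolactin receptor gene *Prlr* with 11 and 62 reads (2.56). Both passed the minimum in the RV-Cre library only, so their calls are tied in part to it. Lowest were *Il15ra*, the IL-15 receptor α chain, with 65 and 23 reads (-1.29), and *Csf2ra* with 80 and 51 reads (-0.47). With only 2 libraries, likeness to a receptor gene can be measured only by the log2 ratio. The nearest other receptor was *Ifngr1* (552 and 1277 reads, 1.38) for *Il6ra*, *Il10ra* (42 and 105 reads, 1.47) for *Il21r* and *Ifnar1* (294 and 498 reads, 0.93) for *Il18r1*. For both *Il1r1* (-1.66) and *Il12rb1* (-2.08) it was *Il15ra* (-1.29), the 1 listed receptor at least 2-fold lower, so no listed receptor came close to *Il12rb1*.

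Receptors for TGFβ and TNFα, which were also supplied to the cultures, were read as a further list. Of 5 genes, *Tgfbr3*, the accessory receptor betaglycan, was lower with 407 and 169 reads, a log2 ratio of -1.09, and 0 genes were 2-fold higher. *Tgfbr2* had 509 and 491 reads, a log2 ratio of 0.12. The median of the 5 was -0.22, which became 0.20 with scaling to *Gapdh*.

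Downstream of the receptors, the transducers of the JAK-STAT pathway were mostly within 2-fold, as were most genes. All 18 passed the minimum, with 1 higher and 1 lower, against 14.2% and 12.3% of all genes past it. Near the abundance of *Il21r* these shares were 4.02% and 6.22%. The median log2 ratio of the 18 was 0.06. *Jak1*, a kinase bound by gp130 and by the IL-21 receptor, was higher with 5144 and 11239 reads, a log2 ratio of 1.30. *Ptpn2*, a phosphatase that acts on JAK and STAT proteins, was lower with 1174 and 485 reads (-1.10). *Socs3*, the feedback inhibitor of gp130, had 2358 and 3375 reads (0.69), and *Socs1* had 1531 and 901 reads (-0.59). *Stat3* itself, chosen after its values were seen, had 8830 and 8782 reads, a log2 ratio of 0.17.

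Of 19 adaptors and kinases below the IL-1 and IL-18 receptors, all passed the minimum and the median log2 ratio was 0.07. Of these, 2 were higher and 1 lower, against 14.2% and 12.3% of all genes past the minimum. *Irak4*, the kinase recruited by MyD88, had 258 and 584 reads (log2 ratio 1.35), and *Irak3*, a negative regulator of the same complex, had 2 and 34 reads, 19.2-fold with a counting interval from 4.92 to 165. *Irak3* passed the minimum in the RV-Cre library only, so its call is tied in part to it. *Tollip*, an inhibitory adaptor, was lower with 418 and 137 reads (-1.43), and *Chuk*, the kinase IKKα, had 516 and 258 reads (-0.82). In the remaining IL-1 family list, 4 of 7 genes passed the minimum. *Il1rn*, the soluble receptor antagonist, was lower with 590 and 79 reads, a log2 ratio of -2.71, and *Il18bp*, the IL-18 binding protein, had 28 and 45 reads (0.84). Also in this list, *Sigirr* had 334 and 375 reads (0.34), and *Il1rapl1* and *Il1rapl2* were at 0 in both libraries.

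Transcripts of the ligands in these libraries were lower or within 2-fold. Of 13 ligands, 7 passed the minimum, of which 3 were 2-fold lower and 0 higher, with a median log2 ratio of -0.69. *Lif*, which also signals through gp130, had 1089 and 244 reads (-1.98), *Il1a* had 20 and 4 reads (-1.92) and *Il1b* had 163 and 54 reads (-1.40). *Il21*, whose receptor was higher, had 2987 and 1708 reads, a log2 ratio of -0.63, chosen after its values were seen. *Il12b* had 16 and 25 reads (0.78) and *Ebi3* 58 and 52 reads (0.02), while *Il23a*, *Il12a* and *Il27* were at 0 in both libraries, where the exact Poisson 95% interval of a count of 0 reaches 0.267 CPM in the control and 0.300 CPM in the RV-Cre library. Of the 5 genes for ectodomain shedding, 4 passed the minimum and 0 were 2-fold different. *Rhbdf2*, which matures the sheddase ADAM17, had 66 and 30 reads (-0.94), *Adam10* 714 and 420 (-0.59), *Rhbdf1* 27 and 20 (-0.25), and *Adam17* itself 1103 and 921 reads (-0.09). The median of these 4 was -0.42. With scaling to *Gapdh*, whose own reads were 956 and 634, all 5 genes of the list passed the minimum, and their median was 0.15.

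**Figure D5:**
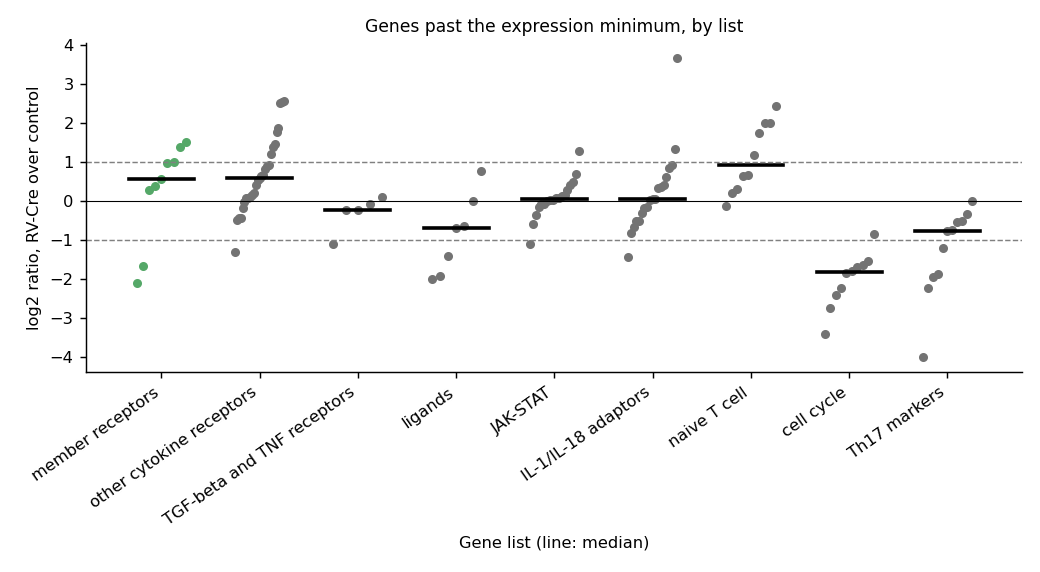
Difference of log2(normalized count + 1), RV-Cre minus control, of each gene past the expression minimum (points), by gene list, with the list median as a line and dashed lines at 2-fold. The receptor genes described here (green) spread from -2.08 to 1.52 around a median of 0.57, while the cell cycle list lay below 0 throughout and the naive T cell list had a median of 0.93.

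Other states and cell types also differed between the libraries. Of 10 genes of naïve and resting T cells, 5 were at least 2-fold higher and 0 lower, with summed levels of 2771 and 4817 CPM. *Klf2* (2.44) had the highest log2 ratio of that list and *Bach2* (-0.12) the lowest. Of 10 cell cycle genes, 9 were lower, with summed levels of 2292 and 722 CPM and log2 ratios from -3.39 for *Aurkb* to -0.84 for *Mcm5*. Of 11 Th17 marker genes outside the receptors, 5 were lower and 0 higher, with summed levels of 1802 and 1084 CPM. *Ccl20* (-4.00) and *Il17f* (-2.23) were lowest, and *Il22* (0.00) had the highest log2 ratio of the list. Of 11 T cell markers, *Cd3d* (1.20) and *Cd3e* (1.16) were higher and 0 were lower.

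Myeloid cells and B cells carry IL-6 and IL-1 receptors too, *Il1r2* in particular being a gene of neutrophils and macrophages. The isolation kit is meant to remove these cells as well before culture, but the purity reached is not given. Of 17 myeloid markers, 14 passed the minimum, 5 were higher and 1 lower, and their summed reads were 650 in the control and 1231 in the RV-Cre library. *Marco* alone had 5 and 289 reads, *S100a8* 6 and 69, *Lyz2* 22 and 7, and *Itgam* 7 and 3, while *Adgre1* was at 0 in the control. Of 8 B cell markers, 3 were higher, the summed level was 6.52 and 13.8 CPM, and *Pax5* was at 0 in both libraries. The part of the naïve state, of cell division and of these other cells in the receptor counts was not tested.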

How the data were processed

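The authors prepared 1 library per condition from 500 ng of total RNA with a Quant-Seq 3′ kit and deposited raw counts, the number of reads per gene symbol, without normalization. The submitters' processing notes name bcl2fastq 2.20.0.422, Bowtie2, bedtools and mm10, with no roles. The annotation and strand setting are not given in the sources used here. Sample groups came from the titles.

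The 2 tables list the same 23282 rows, of which 79 share a symbol with another row and none is in a list used here. Counts were scaled with TMM factors (edgeR 4.0.16, R 4.3.3), giving size factors of 1.06 (control) and 0.941 (RV-Cre). Intervals are exact: Clopper-Pearson for the share of a gene's reads that came from 1 library, turned into a ratio, Poisson for levels and conditional, for an odds ratio, for pairs of chains (scipy 1.17.1). Reads amplified from 1 molecule are not independent and the sources used here name no molecular identifiers, so all intervals cover counting error only. With 1 library per condition no test was run.

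*Rn45s*, a ribosomal RNA gene, held 8.50% and 14.6% of the counts. Positions and promoters came from RefSeq GRCm38.p6 and overlaps from GENCODE M21. Alternatives were other scalings (library total with and without *Rn45s*, DESeq2 1.42.0 size factors, *Gapdh*, quantile by limma 3.58.1, median centring), pseudocounts, minimums, fold thresholds and a 99% interval. The members, gene lists and alternatives were chosen with earlier results of these data known. Named genes are all members, *Ptk2*, the 2 highest and 2 lowest of each list, the nearest other receptor of each member at least 2-fold different, and any marker gene. Other named genes (*Il1b*, *Il21*, *Stat3*, *Il2rg*, *Il12rb2*, *Gapdh*, the antisense genes, the rest of the IL-1 receptor cluster, and genes at 0) were chosen after their values were seen. Some listed genes are not reported by name. Protein sequences were not used here.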

Additional observations from a re-analysis of the deposited data

How the results depend on the processing

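No paired analysis was possible because there is a single library on each side. Across 6 other scalings, 2 other pseudocounts and the ratio with no pseudocount, the last chosen after seeing the data, 9 of the 10 receptor genes kept their direction, and *Il23r*, of 9 and 10 reads, turned to -0.34 with quantile normalization. *Il12rb1* ranged from -2.10 to -1.67 on the log2 scale, *Il1r1* from -1.88 to -1.25, *Il6ra* from 1.35 to 1.80 and *Il21r* from 1.51 to 1.94. Of 90 such values, 6 left the main counting interval, 4 of them with scaling to *Gapdh*, which shifts the median of all genes to 0.43.

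The number of receptor genes at least 2-fold lower was 2 throughout. The number at least 2-fold higher was 3, went to 0 with a threshold of 3-fold, and otherwise lay between 2 and 4, as *Il18r1* and *Il1r2* sit at the line. Over all genes, 734 higher and 1067 lower genes were left with a minimum of log2 6, 758 and 1097 with log2 4 in both libraries, 2807 and 2081 with log2 2, 3265 and 2441 with no minimum, 2847 and 2777 at 1.5-fold, 1008 and 669 at 3-fold, and 2960 and 780 with *Gapdh* scaling, against 1720 and 1491. The *Il12rb1*/*Il12rb2* change of 0.3215 no longer excluded 1 with a 99% interval (0.109 to 1.02). With 24 reads or fewer in a library, as for *Il1r1* and *Il23r*, depth limits the ratio.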
